A study of Mus musculus with 16 samples.

Results

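The comparison described here sets tumours that received both radiation and QH-II-066 against tumours that received QH-II-066 alone, so the treatment that differs is the radiation. It uses 8 of the 16 RNA libraries of the study, 4 per group, chosen by their sample names, and covers every gene that could be tested (16101 of the 46078 in the table). The tumours grew from B16F10-GP mouse melanoma cells placed in matrigel on the flanks of C57BL/6 mice, all female and aged 6 to 8 weeks. The combined group received 5 Gy of X-rays once, to the right flank on the morning of day 10, and the first dose of QH-II-066 that evening. The QH-II-066 group received the compound from day 10 without radiation. In both groups the dose was 10 mg/kg by intraperitoneal injection, daily for 7 days. A 5 Gy group and an untreated group given vehicle, 4 libraries each, serve below as the same radiation comparison without the drug. The labels do not say which flank a profiled tumour came from, nor whether the 4 libraries of a group are 4 mice, so p-values measure only the spread between these libraries, which may be technical.

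Ionising radiation breaks DNA. In cells with working p53 it raises p53 targets such as Cdkn1a, stalls the cell cycle and can release interferon and chemokine signals, and in irradiated tissue the fibroblasts, macrophages and vessels are remodelled over days. B16F10 cells come from a pigmented melanoma of the C57BL/6 strain. QH-II-066, known here by its code name, belongs to a study whose title names enhancement of GABA-A receptors, which are chloride channels built from several kinds of subunit. The comparison asks what 5 Gy adds in tumours of mice that also receive the drug.

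No gene passed the test for a difference between the combined and the QH-II-066 tumours. In edgeR's quasi-likelihood test, 0 of 16101 genes were higher and 0 were lower at an adjusted p under 0.05 (0% called in each direction), and the smallest adjusted p was 0.9997. At an unadjusted p under 0.05, 446 genes were higher (2.77% of those tested) and 142 were lower (0.882%), 588 in all (3.65%). The other tools differed: limma-voom with sample weights called 0 genes, with 849 higher and 888 lower at an unadjusted p under 0.05, and DESeq2 called 47 genes higher and 1 lower, the lower one being Amy1. Of those 47, 31 had 0 counts in all 4 QH-II-066 libraries and 12 belonged to the skin epithelium list described below. That list does not hold every epidermal gene: Asprv1, Dmkn and Aqp3, also described below, were among the 47 but are not on it. The median log2 fold change over all tested genes was -0.02, and 7517 genes (46.7%) were above 0.

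The precision behind this result was a median standard error (SE) of 0.242 on the log2 scale, or 0.159 for genes with a mean level of at least 5 log2 CPM, where CPM is the count of a gene divided by the effective library size, in the usual per-million unit. For 10852 genes (67.4%) the 95% interval of the difference lay wholly inside a log2 change of 1 in either direction, taken gene by gene without adjustment. For the remaining genes the interval reached past 1 in at least 1 direction. Library totals were 6994198 to 40799942 counts in the combined group and 23035634 to 38114306 in the QH-II-066 group, combined replicate 4 being the shallowest. Where a gene had 0 counts, the limit of 3 counts corresponds to 0.447 CPM in that library and to at most 0.121 CPM in a QH-II-066 library, on effective library sizes and for counting error only.

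Host tissue in the tumour samples differed between the groups. Combined replicates 2, 3 and 4 carried transcripts of skin epithelium. The summed CPM of 29 tested skin genes was 54.6, 1441, 529 and 2664 in combined replicates 1 to 4, against 30.1, 25.0, 40.6 and 30.5 in QH-II-066 replicates 1 to 4. All 4 combined libraries stood above all 4 QH-II-066 libraries, replicate 1 by the least. Skeletal muscle genes summed to 68.3, 237, 954 and 1934 CPM in the combined libraries, against 68.9, 63.5, 133 and 1986 CPM in the QH-II-066 libraries. Muscle was therefore highest, at similar sums, in combined replicate 4 and QH-II-066 replicate 4. Combined replicate 3 came next and then combined replicate 2, and the groups overlapped. Adipocyte genes summed to 522, 494, 558 and 984 CPM in the combined libraries, against 548, 698, 3639 and 1325 CPM in the QH-II-066 libraries, with QH-II-066 replicate 3 far above the rest. Genes of pigmented melanoma cells were near level, at 26216 to 35393 summed CPM in the combined libraries and 27236 to 31473 in the QH-II-066 libraries. In bulk tumour RNA fewer cells of a type and less RNA per cell cannot be told apart. Profiles of log2 CPM correlated at 0.914 to 0.979 among the combined libraries and at 0.947 to 0.981 among the QH-II-066 libraries. Combined replicate 1, the one with the least skin signal, correlated at a median of 0.976 with the QH-II-066 libraries and 0.941 with the other combined libraries.

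**Figure D1:**
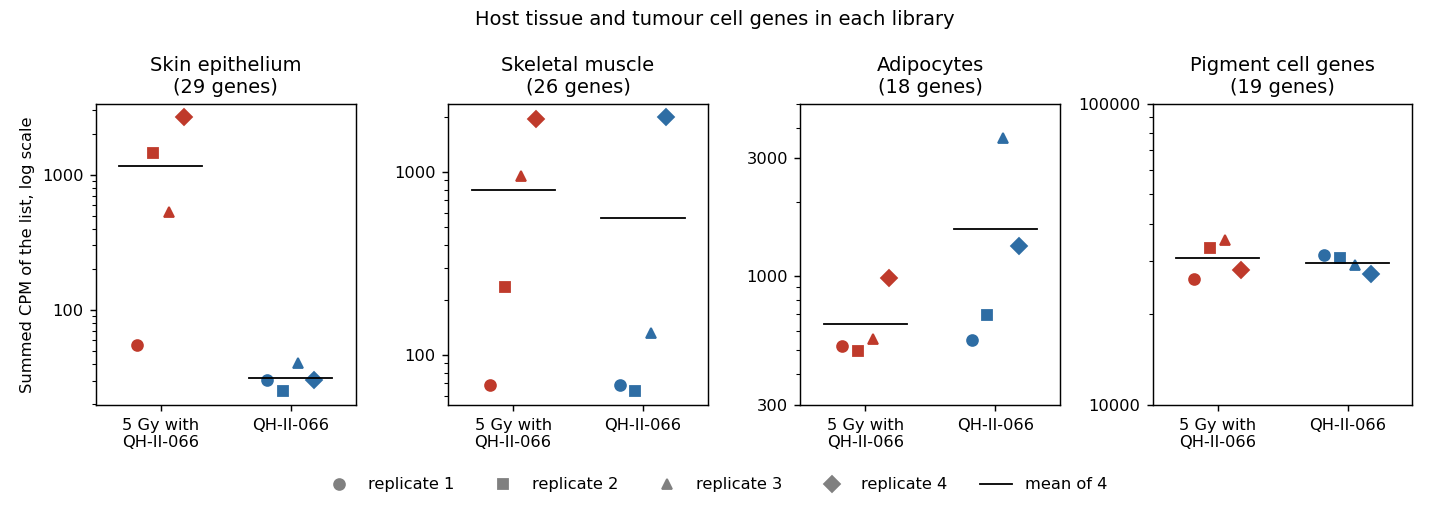
Summed CPM (log scale) of the tested members of 4 gene lists in each library, with marker shape for the replicate number and a line for the mean of 4. Skin genes reach 529 to 2664 CPM in combined replicates 2 to 4 and stay at 40.6 CPM or below in the QH-II-066 libraries, adipocyte genes peak at 3639 CPM in QH-II-066 replicate 3, and pigment cell genes are near level.

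The largest differences were in genes of the epidermis, the layered outer sheet of the skin. Of the 29 tested skin genes, 0 passed the edgeR test, 29 were above 0 and 26 had an unadjusted p under 0.05, against 2.77% of all genes. In 15 of them all 4 combined libraries lay above all 4 QH-II-066 libraries, against 1.29% of all genes. The list was chosen with earlier results of these data known. Members with 0 counts in every QH-II-066 library passed the filter on low counts through other libraries, so they could only lie above 0. These shares are therefore a description and not a test. The median log2 fold change of the 29 genes was 6.78, against -0.02 over all genes. It was 6.32 when the 7 members with 0 counts in every QH-II-066 library were set at the bound that 3 counts over the group allow. Leaving out the skin-bearing libraries leaves combined replicate 1 alone on its side and assumes that it varies like the other libraries. The median was then 0.72, over the 23 members that gave a value. Every value of this comparison given below without the skin-bearing libraries rests on that 1 combined library. Krt10, a keratin of the upper epidermis, had 2.24, 103, 57.0 and 359.9 CPM in combined replicates 1 to 4, against 0.264, 0.234, 0.121 and 0.372 CPM in QH-II-066 replicates 1 to 4. The combined libraries ran in the same order for Krt10 as for the skin sum. Its log2 fold change was 8.95 ± 2.35 (SE, n = 4 each), and it missed the threshold.

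The 10 higher genes that came nearest to the threshold, all of which missed it, were mostly epidermal. Asprv1 encodes a protease that processes filaggrin in the epidermis, and Dmkn a protein secreted by keratinocytes. Aqp3 encodes a water and glycerol channel of basal keratinocytes. The other genes among the 10 with few or no counts outside the skin-bearing libraries were Ly6g6c, Nccrp1 and Psapl1. Asprv1 averaged 30.3 ± 30.8 CPM in combined libraries and 0.140 ± 0.0571 CPM in QH-II-066 libraries (SD, n = 4 each), which gave a log2 fold change of 7.72 ± 2.01 (SE). Dmkn averaged 66.0 ± 61.7 CPM in combined libraries and 0.276 ± 0.342 CPM in QH-II-066 libraries, and Aqp3 9.04 ± 11.3 CPM in combined libraries and 0.105 ± 0.0554 CPM in QH-II-066 libraries. The standard deviations in the combined group were about as large as its means, and replicate 1 was the lowest of the 4 for each of these genes. Ly6g6c had 514 counts in the combined group and 2 in the QH-II-066 group, Psapl1 had 761 counts in the combined group and 2 in the QH-II-066 group, and Nccrp1 had 307 counts in the combined group and 4 in the QH-II-066 group.

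The other skin genes named by the same rule were also highest in skin-bearing libraries. Krt17, a keratin of hair follicles and wounded epidermis, had 0.216, 106, 11.3 and 131 CPM in the combined libraries, against 0.0330, 0, 0.485 and 0.0796 CPM in the QH-II-066 libraries. Tgm1, the transglutaminase that cross-links the cornified envelope, had 1.41, 4.94, 1.52 and 8.34 CPM in the combined libraries, against 0.461, 0.568, 0.526 and 0.929 CPM in the QH-II-066 libraries. Combined replicate 3 was close to replicate 1 for Tgm1. Perp, a desmosome protein and p53 target, averaged 67.4 ± 72.7 CPM in combined libraries and 0.895 ± 0.295 CPM in QH-II-066 libraries. Perp was high only in the 3 skin-bearing libraries, and its log2 fold change of 6.21 became 0.93 without them. The basal keratins Krt5 and Krt14 had 1.08 and 0.649 CPM in combined replicate 1, against at most 1.98 and 1.70 CPM in the QH-II-066 libraries, both in replicate 3. Combined replicate 1 therefore lay below QH-II-066 replicate 3 for both keratins. With a skin score as covariate the log2 fold changes were below 0 for Krt17 (-0.62), Krt14 (-0.61), Perp (-0.35), Krt5 (-0.18) and Nccrp1 (-0.11).

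**Figure D2:**
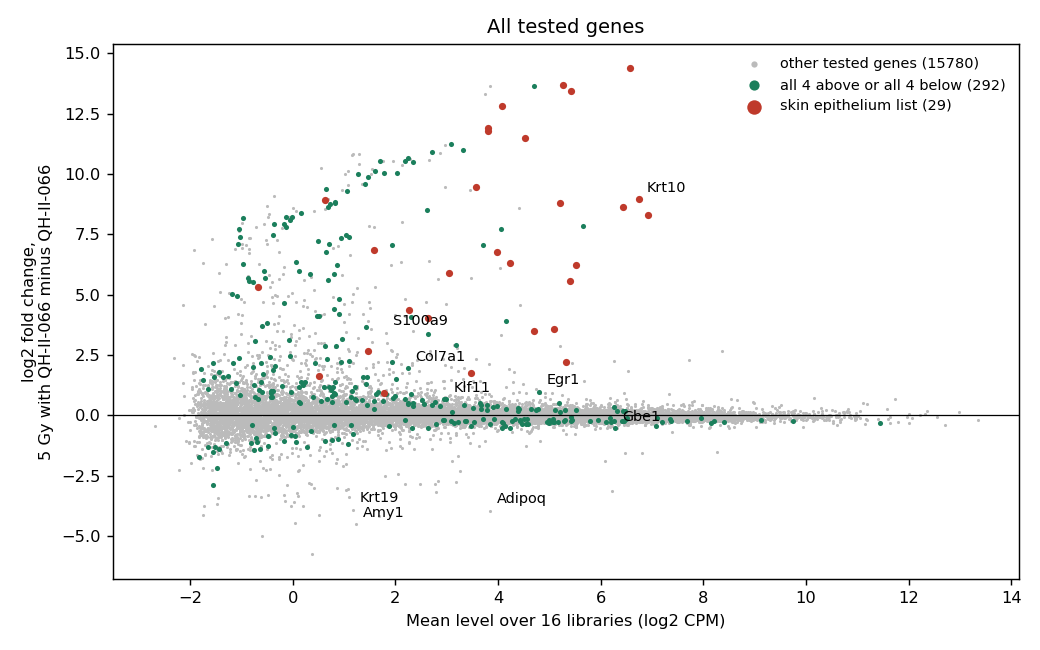
Log2 fold change (combined minus QH-II-066) of every tested gene against its mean level in log2 CPM over 16 libraries, with genes whose 4 combined libraries all lie above or all below the 4 QH-II-066 libraries in green and the skin epithelium list in red. The skin genes form the upper arm, up to 14.4, while genes at high level lie close to 0.

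Col7a1, Arhgef19 and Klf11 are the genes among the 10 leading higher ones that had the highest mean levels in the QH-II-066 libraries. Col7a1, the collagen of the fibrils that anchor epidermis to dermis, had 5.52, 8.00, 3.28 and 11.3 CPM in the combined libraries, against 1.42, 2.17, 1.05 and 2.49 CPM in the QH-II-066 libraries, a log2 fold change of 1.95 ± 0.55 (SE). Arhgef19, which encodes a guanine nucleotide exchange factor for small GTPases, had 1.68, 1.21, 1.85 and 6.55 CPM in the combined libraries, against 0.330, 0.635, 0.768 and 0.504 CPM in the QH-II-066 libraries. Its log2 fold change of 2.28 ± 0.63 was 1.50 without combined replicate 4, which stood highest. Without the skin-bearing libraries the log2 fold changes were 1.62 for Col7a1 and 1.58 for Arhgef19. With a skin score as covariate they were 0.73 for Col7a1 and 1.05 for Arhgef19, and limma-voom gave 1.14 for Col7a1. The part of skin tissue in both was not tested further.

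Klf11 encodes a zinc-finger transcription factor of the Krüppel-like family that binds GC-rich promoter sequence. It had 10.2, 10.6, 10.6 and 7.74 CPM in the combined libraries, against 5.54, 5.94, 5.82 and 7.38 CPM in the QH-II-066 libraries. The groups did not overlap, although replicate 4 of each group came close to the other group. The log2 fold change was 0.67 ± 0.19 (SE, 95% interval 0.26 to 1.08), the edgeR adjusted p was 0.9997, and the value without the skin-bearing libraries was 0.72. Without drug, Klf11 differed by 0.02 ± 0.19 between the 5 Gy and the untreated libraries.

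The 10 lower genes that came nearest to the threshold divided into a set in which the QH-II-066 libraries spread widely and a set with small, even differences, and all of them missed it. The wide set comes first. Amy1, the amylase of salivary gland and liver, had 0.352, 0.0392, 0.358 and 0.447 CPM in the combined libraries, against 0.132, 1.07, 20.7 and 4.41 CPM in the QH-II-066 libraries. Sncg, gamma-synuclein, which fat cells express, had 1.84, 1.06, 1.19 and 2.38 CPM in the combined libraries, against 1.12, 3.17, 27.7 and 12.8 CPM in the QH-II-066 libraries. Both genes were highest in QH-II-066 replicates 3 and 4, the libraries with the highest adipocyte sums, and the part of fat tissue in the result was not tested.

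The same library was highest for Cdo1, the cysteine dioxygenase of fat and liver, Krt19, a keratin of simple epithelia, and Smoc1, a secreted calcium-binding matrix protein. Cdo1 had 56.7 CPM, Krt19 24.4 CPM and Smoc1 15.4 CPM in QH-II-066 replicate 3, where the other 7 libraries had at most 7.96, 0.730 and 5.15 CPM of them. Leaving out that replicate took the log2 fold change of Krt19 to -0.16, against -3.89 with it. In the same way Amy1 went to -2.71, against -4.51 with it, Sncg to -1.85, against -2.83, Cdo1 to -1.06, against -3.18, and Smoc1 to -0.57, against -1.35.

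In the other set the QH-II-066 libraries kept close together. Gbe1, the glycogen branching enzyme, had 46.4, 62.4, 57.7 and 47.2 CPM in the combined libraries, against 66.5, 75.1, 87.7 and 75.7 CPM in the QH-II-066 libraries. Every combined library lay below every QH-II-066 library, as was the case for 0.621% of all tested genes. The log2 fold change was -0.51 ± 0.17 (SE, 95% interval -0.87 to -0.15). Without the skin-bearing libraries it was -0.72, from combined replicate 1 alone, the lowest library for Gbe1. With skin score and gene length slope as covariates it was -0.30.

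Cmbl, a hydrolase, averaged 14.5 ± 2.56 CPM in combined libraries and 21.1 ± 2.44 CPM in QH-II-066 libraries (SD, n = 4 each), without overlap and with a log2 fold change of -0.53 ± 0.16 (SE). Sav1, the scaffold of the Hippo kinases, averaged 64.3 ± 6.43 CPM in combined libraries and 77.9 ± 3.91 CPM in QH-II-066 libraries, also without overlap, with -0.28 ± 0.09. The predicted gene Gm10639 averaged 17.6 ± 2.55 CPM in combined libraries and 25.7 ± 2.03 CPM in QH-II-066 libraries, without overlap and with -0.54 ± 0.17. Tinagl1, a secreted basement membrane protein, averaged 225 ± 35.0 CPM in combined libraries and 322 ± 47.2 CPM in QH-II-066 libraries and overlapped by 1 library, with -0.51 ± 0.17. Cmbl went to -0.31 without the skin-bearing libraries, and Sav1 to -0.17 with skin score and gene length slope as covariates. Without drug the radiation differences were -0.18 for Cmbl, -0.06 for Sav1, -0.38 for Gm10639, -0.31 for Tinagl1 and -0.05 for Gbe1. None of them was called.

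**Figure D3:**
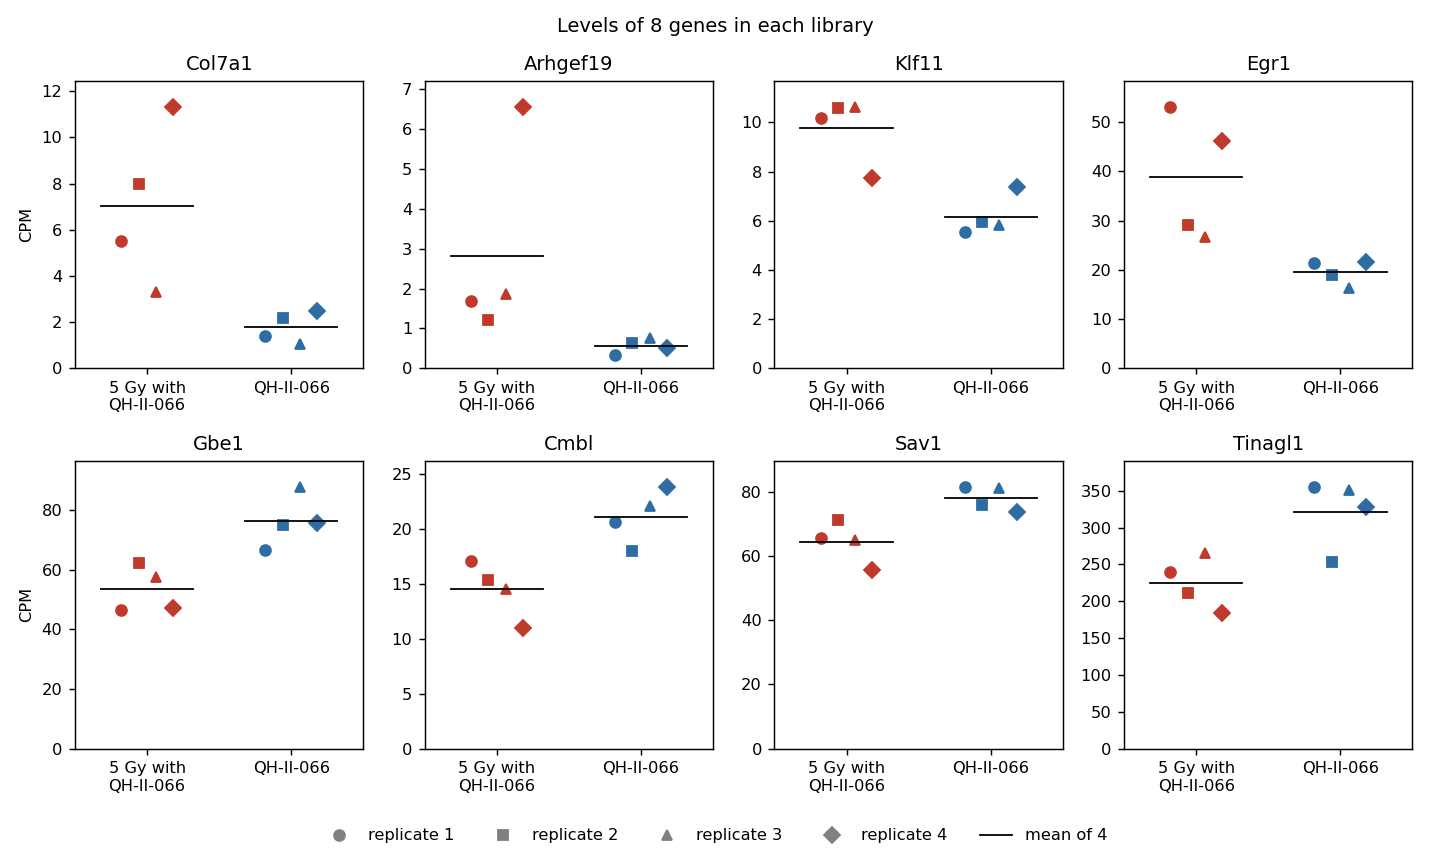
CPM in each library for 4 genes higher and 4 genes lower in the combined group, with marker shape for the replicate number and a line for the mean of 4. Klf11 and Egr1 lie higher in all 4 combined libraries, replicate 1 included, Arhgef19 is led by combined replicate 4 at 6.55 CPM, and Gbe1, Cmbl and Sav1 lie lower in all 4 combined libraries while Tinagl1 overlaps.

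Over all genes, 207 had all 4 combined libraries above all 4 QH-II-066 libraries (1.29%) and 100 had all 4 below (0.621%). With 4 libraries against 4 some genes separate by chance, and these counts were not tested against it. The 2 sets differed in size of change. Of the 207 genes, 136 had a log2 fold change over 1, 15 were on the skin list, 39 had 0 counts in all 4 QH-II-066 libraries, and the median was 1.95. Of the 100 genes, 19 were lower by more than 1, 67 differed by less than 0.5, and the median was -0.30. Genes with 0 counts in every QH-II-066 library can fall only in the higher set, so nothing is read from the gap between the medians. The lower set held 0 genes of the skin list. That list does not hold every epidermal gene: Asprv1 and Dmkn are among the 207 but not on it.

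The sequence before the start of transcription is shown for 3 of these genes, so that the letters stand beside the levels. Krt10 is on the skin list, and Klf11 and Gbe1 are genes off that list whose groups also separated. Each run is the 250 bases before the RefSeq start, 5′ to 3′ on the gene's strand, in build GRCm38.p6 (Krt10 chr11:99389365-99389614, minus strand, Klf11 chr12:24651121-24651370, plus strand, and Gbe1 chr16:70313699-70313948, plus strand). Capitals mark the motifs searched on both strands, which were TATAAA (the TATA box), GGGCGG (the GC box, where neighbouring matches can overlap) and TGANTCA (the AP-1 site).
Krt10: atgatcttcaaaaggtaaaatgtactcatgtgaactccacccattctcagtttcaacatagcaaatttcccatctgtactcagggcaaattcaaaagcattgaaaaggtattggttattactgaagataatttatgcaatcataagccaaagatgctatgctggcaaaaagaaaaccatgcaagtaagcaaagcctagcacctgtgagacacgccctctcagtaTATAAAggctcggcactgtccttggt
Klf11: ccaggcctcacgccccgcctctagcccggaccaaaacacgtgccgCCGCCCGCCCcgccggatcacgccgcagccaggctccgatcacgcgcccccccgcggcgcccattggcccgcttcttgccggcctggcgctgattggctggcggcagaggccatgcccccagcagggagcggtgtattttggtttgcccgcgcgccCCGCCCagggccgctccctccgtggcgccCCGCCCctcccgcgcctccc
Gbe1: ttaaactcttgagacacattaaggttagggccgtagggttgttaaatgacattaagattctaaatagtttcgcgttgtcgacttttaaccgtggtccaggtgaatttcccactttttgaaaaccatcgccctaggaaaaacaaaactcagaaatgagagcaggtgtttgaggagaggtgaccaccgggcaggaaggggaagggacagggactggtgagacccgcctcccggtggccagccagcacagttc
Krt10 holds 1 TATAAA, beginning 26 bases before the start, a motif found in 12.4% of 32851 such windows. Klf11 holds 4 matches to GGGCGG, all on the other strand and so printed as CCGCCC, of which 2 overlap, a motif found in 32.7% of windows. Gbe1 holds none of the 3 motifs, and TGANTCA, found in 6.75% of windows, is in none of the 3 sequences.

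The response to DNA damage was measured with 30 p53 targets, not counting Perp, which was placed on the skin list. The flank profiled is not known and the time from radiation to collection is not given here. The values therefore describe the tumours as collected only. None was called, and 0 had an unadjusted p under 0.05 in either direction. Of the 30, 13 were above 0, with a median log2 fold change of -0.02 and a mean of 0.05. The 95% interval lay inside a log2 change of 1 for 24 of them and inside 0.5 for 13. Cdkn1a, the p21 inhibitor of cyclin-dependent kinases, had 189.6, 186, 183 and 167 CPM in the combined libraries, against 187, 189, 209 and 187 CPM in the QH-II-066 libraries. The groups overlapped, and the log2 fold change was -0.09 ± 0.11 (SE, 95% interval -0.33 to 0.15). Mdm2, the ubiquitin ligase that degrades p53, differed by -0.09 ± 0.13, and Ccng1, cyclin G1, by -0.09 ± 0.17. Bax, a pore-forming effector of apoptosis, differed by -0.03 ± 0.26. The p53 targets with the smallest p were Eda2r, a receptor of the TNF receptor family, with 1.17 ± 0.65, Btg2, an antiproliferative factor, with 0.49 ± 0.31, and Pmaip1, the Noxa protein, with 0.66 ± 0.42. Eda2r had 63 counts in the combined group and 35 in the QH-II-066 group. Each stayed above 0 in the alternative settings. The lowest values were 0.13 for Eda2r, with a skin score as covariate, 0.064 for Pmaip1, with limma-voom, and 0.015 for Btg2.

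Repair and division gave the same picture. Of 30 genes of DNA damage signalling and repair, 7 were above 0, with a median of -0.05, and 28 had an interval inside a log2 change of 1. Xrcc2, a gene of homologous recombination, had 10.4, 18.7, 22.5 and 10.1 CPM in the combined libraries, against 20.7, 19.9, 20.9 and 16.2 CPM in the QH-II-066 libraries, low in combined replicates 1 and 4. Of 26 mitosis genes 9 were above 0, with a median of -0.06, and of 26 replication genes 8 were above 0, with a median of -0.10. Every member of both lists had an interval inside a log2 change of 1.

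Mki67, the proliferation marker, averaged 296 ± 12.3 CPM in combined libraries and 281 ± 7.55 CPM in QH-II-066 libraries, a log2 fold change of 0.08 ± 0.12 (SE). Top2a, the topoisomerase of dividing cells, differed by -0.11 ± 0.15, and Ccnb1, cyclin B1, by -0.25 ± 0.19. Nusap1, a spindle protein, differed by -0.15 ± 0.09, and Cdc6, which loads the replicative helicase, by -0.31 ± 0.17. Combined replicate 4 was the lowest of the 8 libraries for Ccnb1, Nusap1, Top2a and Cdc6. It is also the shallowest library and the one with the most skin signal, and the part of either in these levels was not tested.

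Cell death genes were also near 0. Of 22 apoptosis regulators, 10 were above 0, with a median of -0.03. Bid, which links death receptors to mitochondria, had 45.2, 38.3, 39.1 and 37.2 CPM in the combined libraries, against 47.1, 45.9, 45.9 and 47.1 CPM in the QH-II-066 libraries. The groups did not overlap, with a log2 fold change of -0.22 ± 0.11 that was -0.04 without the skin-bearing libraries. Of 14 necroptosis and pyroptosis genes 5 were above 0, with a median of -0.09. Mlkl, the executor of necroptosis, averaged 125 ± 27.1 CPM in combined libraries and 149.7 ± 7.74 CPM in QH-II-066 libraries.

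The pigment cell identity of the tumour was followed with 19 genes, of which 8 were above 0, with a median of -0.03 and 18 intervals inside a log2 change of 1. Pmel, the fibre protein of melanosomes, had 5009, 5362, 6135 and 5690 CPM in the combined libraries, against 6166, 5618, 4759 and 4984 CPM in the QH-II-066 libraries. The groups overlapped, with 0.04 ± 0.13. Mitf, the master transcription factor of melanocytes, differed by -0.18 ± 0.21 and Mlana, a melanosome antigen, by -0.05 ± 0.28. Mc1r, the melanocortin receptor, differed by 0.15 ± 0.14, and Rab38, a melanosome trafficking GTPase, by -0.13 ± 0.14.

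The immediate early genes, which encode transcription factors induced within minutes of a stimulus, were mostly on the positive side. None was called. Of 20, 17 were above 0 against 46.7% of all genes, with a median log2 fold change of 0.23, and 16 were above 0 without the skin-bearing libraries, with a median of 0.41. Leaving out each library in turn gave medians of 0.12 to 0.30, with 12 to 17 above 0. Egr1, a zinc-finger factor of this class, had 53.1, 29.2, 26.7 and 46.3 CPM in the combined libraries, against 21.5, 18.9, 16.2 and 21.6 CPM in the QH-II-066 libraries. Every combined library was above every QH-II-066 library, combined replicates 1 and 4 the most. Its log2 fold change was 0.99 ± 0.31 (SE, 95% interval 0.33 to 1.65), edgeR adjusted p = 0.9997. Without the skin-bearing libraries it was 1.44, from combined replicate 1 alone, the highest library for Egr1. It was 0.56 with limma-voom and 0.58 with skin score and gene length slope as covariates.

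The other members named from that list went either way. Egr3, another factor of the family, had 4.17 CPM in combined replicate 4 and at most 0.588 CPM in the other 7 libraries. Its log2 fold change was 2.87 ± 1.28, or 0.98 without that replicate. Myc, the growth-promoting oncogene, averaged 62.0 ± 11.3 CPM in combined libraries and 78.9 ± 10.4 CPM in QH-II-066 libraries, a difference of -0.35 ± 0.16. Nr4a1, an orphan nuclear receptor, differed by -0.25 ± 0.14.

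Hypoxia and glycolysis genes lay low in the combined group as a list, with 1 of 22 above 0 and a median of -0.21. The list summed to 23632, 25516, 26767 and 18752 CPM in the combined libraries, against 30006, 30736, 26099 and 28792 CPM in the QH-II-066 libraries. Combined replicate 4 was lowest, and combined replicate 3 alone reached the QH-II-066 range. Leaving out each library in turn gave medians of -0.33 to -0.16 with 2 or 3 members above 0, and the median was -0.24 without the skin-bearing libraries. Ldha, lactate dehydrogenase A, averaged 2882 ± 363 CPM in combined libraries and 3563 ± 418 CPM in QH-II-066 libraries, a log2 fold change of -0.31 ± 0.16. Pgk1, phosphoglycerate kinase, differed by -0.37 ± 0.18, Gapdh, the glyceraldehyde phosphate dehydrogenase of glycolysis, by -0.39 ± 0.20, or by -0.22 without combined replicate 4, and Vegfa, the vessel growth factor, by -0.21 ± 0.24. The member above 0 was Egln3, an oxygen-sensing prolyl hydroxylase, with 6.25, 11.2, 6.74 and 7.74 CPM in the combined libraries, against 3.39, 6.98, 2.71 and 3.58 CPM in the QH-II-066 libraries and a log2 fold change of 0.94 ± 0.36. Across the alternative settings Ldha ranged from -0.38 to -0.032 and Pgk1 from -0.46 to -0.061. Gapdh ranged from -0.64 to -0.15 and Vegfa from -0.31 to 0.21. None of the differences in the main comparison was called.

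Other housekeeping lists had medians close to 0 with all libraries. Of 30 nuclear genes of oxidative phosphorylation 11 were above 0, with a median of -0.05, and of 32 cytosolic ribosomal proteins 11 were above 0, with a median of -0.03 and a mean of 0.0077. Of 22 genes of the unfolded protein and integrated stress response 15 were above 0, with a median of 0.04 and 22 intervals inside a log2 change of 1. Of 16 antioxidant genes 6 were above 0, with a median of -0.05, among them Nfe2l2, the NRF2 regulator itself, with -0.22 ± 0.10. Without the skin-bearing libraries the medians were 0.19 for oxidative phosphorylation, 0.34 for ribosomal proteins, 0.26 for antioxidant genes and -0.00035 for the stress response. In that setting 31 of 32 ribosomal protein genes were above 0. With all libraries, 5 of the 32 had an interval inside a log2 change of 0.5. Ribosomal protein genes summed to 39064 to 63930 CPM in the combined libraries and 30258 to 70080 CPM in the QH-II-066 libraries. They were highest in replicate 1 of each group, where the slope of log2 CPM on gene length was -0.248 and -0.247, the steepest of the 8.

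The target named in the study's title was at the edge of detection. Of 19 genes for GABA-A receptor subunits, 3 had enough counts to be tested and 4 had 0 counts in all 8 libraries, Gabra5 among them. No untested subunit exceeded 28 counts over the combined group or 19 over the QH-II-066 group. Gabra3 had 1.65, 0.0784, 0.597 and 2.68 CPM in the combined libraries, against 0.231, 1.27, 1.05 and 0.876 CPM in the QH-II-066 libraries. Gabrd had 1.35, 0.705, 0.955 and 0.298 CPM in the combined libraries, against 0.791, 1.0, 0.283 and 0.743 CPM in the QH-II-066 libraries. The ranges overlapped for both, with log2 fold changes of 0.47 ± 0.80 and 0.29 ± 0.51. Gabrb1 differed by -0.69 ± 0.78, at no more than 0.425 CPM in any of the 8 libraries.

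Genes for GABA handling, receptor anchoring and chloride transport were measured better, and 5 of 18 tested were above 0, with a median of -0.09. Slc6a13, a GABA transporter, had 1 count in the combined group and 27 in the QH-II-066 group, most of them in replicate 3. Slc12a2, the importer that loads cells with chloride, had 15.2, 21.7, 20.2 and 22.6 CPM in the combined libraries, against 18.9, 17.8, 74.8 and 17.2 CPM in the QH-II-066 libraries. QH-II-066 replicate 3 stood alone, and without it the log2 fold change was 0.14, against -0.69 ± 0.39 with it. Gabarapl1, an autophagy and receptor trafficking protein, differed by -0.12 ± 0.14.

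The list medians of interferon and antigen presentation genes were below 0 with all libraries, without a call. Without the skin-bearing libraries, which leaves combined replicate 1 alone, they were above 0. They were then 0.12 for interferon, 0.29 for MHC class I and 0.0052 for MHC class II. Of 29 type I interferon response genes, 2 were above 0, with a median log2 fold change of -0.18. That count rested on 1 library: without QH-II-066 replicate 3, 17 of 29 were above 0 and the median was 0.0042. The list summed to 3264, 1541, 1977 and 2807 CPM in the combined libraries, against 2341, 2286, 2714 and 2602 CPM in the QH-II-066 libraries. Combined replicates 1 and 4 were above every QH-II-066 library and combined replicates 2 and 3 below every one.

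Tmem173, the STING adaptor of DNA sensing, had 62.5, 62.5, 63.6 and 52.0 CPM in the combined libraries, against 64.3, 67.9, 79.7 and 78.7 CPM in the QH-II-066 libraries. The groups did not overlap, and the log2 fold change was -0.27 ± 0.11 (SE). Ddx58, the RIG-I sensor of viral RNA, differed by -0.33 ± 0.21, with QH-II-066 replicate 3 highest at 87.2 CPM. Ifi27l2a, an interferon-induced gene, differed by -0.76 ± 0.50. Isg15, a ubiquitin-like interferon product, differed by -0.10 ± 0.41, and combined replicate 1 was its highest library at 164 CPM.

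Of 20 MHC class I presentation genes 6 were above 0, with a median of -0.15, and of 12 class II genes 2 were above 0, with a median of -0.41. Without combined replicate 2, 10 of 20 class I genes were above 0, with a median of -0.011, and without the skin-bearing libraries 16 of 20 were, as were 7 of 12 class II genes. Leaving out each library in turn gave class II medians of -0.53 to -0.28. B2m, the invariant chain of class I molecules, had 2921, 2338, 2838 and 2154 CPM in the combined libraries, against 3358, 3056, 3081 and 3174 CPM in the QH-II-066 libraries. All 4 combined libraries were lower, with a log2 fold change of -0.31 ± 0.15 that was -0.12 without the skin-bearing libraries. Nlrc5, the transactivator of class I genes, differed by -0.31 ± 0.21. Cd74, the class II invariant chain, averaged 901 ± 334 CPM in combined libraries and 1252 ± 123 CPM in QH-II-066 libraries, and H2-Aa, a class II chain, 451 ± 97.4 CPM in combined libraries and 629 ± 105 CPM in QH-II-066 libraries. For both genes combined replicates 1 and 4 lay within the QH-II-066 range and replicates 2 and 3 below it. H2-Ob, a chain of the class II modulator, differed by -0.58 ± 0.38.

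Lymphocyte genes gave wide intervals. Of 24 T cell genes 13 were above 0, with a median of 0.05, and of 19 cytotoxic effector genes 8 were above 0, with a median of -0.14. Only 3 intervals in each list lay inside a log2 change of 1. Cd8a, a chain of the cytotoxic T cell co-receptor, had 9.22, 4.19, 4.74 and 7.74 CPM in the combined libraries, against 6.23, 6.81, 9.18 and 9.77 CPM in the QH-II-066 libraries, a log2 fold change of -0.31 ± 0.38. Gzmb, the granzyme of killer cells, had 8.71, 3.96, 6.42 and 11.6 CPM in the combined libraries, against 6.03, 11.1, 12.9 and 11.6 CPM in the QH-II-066 libraries, with -0.46 ± 0.45. Combined replicates 2 and 3 were the lower pair of their group for both genes.

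Cd3e, a chain of the T cell receptor complex, differed by -0.10 ± 0.47, Ifng, interferon gamma, by 0.30 ± 0.54, and Foxp3, the regulatory T cell factor, by 0.62 ± 0.75. Bcl11b, a T lineage factor that keratinocytes also express, had 7.74 CPM in combined replicate 4 and a log2 fold change of 2.52 ± 0.91, or 1.49 without that library. Eomes, a T-box factor of killer cells, differed by 0.52 ± 0.40. Checkpoint genes had 10 of 21 above 0, with a median of -0.01. Cd274, the PD-L1 ligand, differed by -0.36 ± 0.27. Ido1, a tryptophan-degrading enzyme, differed by -3.28 ± 0.96, or by -1.57 without QH-II-066 replicate 3, which had 6.03 CPM where the others had at most 0.849 CPM.

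Myeloid genes included some of the more variable differences. Of 26 macrophage and monocyte genes 19 were above 0, with a median of 0.09, and of 15 dendritic cell genes 6 were above 0, with a median of -0.17. Mrc1, a mannose receptor carried by macrophages in tissue, had 49.2, 25.7, 26.1 and 71.7 CPM in the combined libraries, against 22.7, 51.6, 28.6 and 45.0 CPM in the QH-II-066 libraries, with 0.21 ± 0.32. Cd163, the haemoglobin scavenger receptor, had 4.06, 2.59, 4.72 and 15.6 CPM in the combined libraries, against 2.21, 4.78, 3.23 and 4.67 CPM in the QH-II-066 libraries, with 0.81 ± 0.53. Combined replicate 4 was highest for both, and with limma-voom sample weights both differences were below 0, at -0.59 for Mrc1 and -0.094 for Cd163.

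Csf1r, the macrophage growth factor receptor, differed by 0.11 ± 0.34, Itgam, the CD11b integrin, by -0.62 ± 0.40, and Xcr1, the chemokine receptor of cross-presenting dendritic cells, by -0.95 ± 0.57. Of 10 tested neutrophil genes 7 were above 0, with a median of 0.96 that was 0.20 without combined replicate 2. S100a9, a calprotectin chain of neutrophils and wounded epidermis, had 1.22, 37.5, 1.46 and 2.83 CPM in the combined libraries, against 0.956, 2.70, 0.0809 and 0.239 CPM in the QH-II-066 libraries. Its partner S100a8 had 1.30, 33.8, 0.657 and 0.298 CPM in the combined libraries, against 0.461, 2.81, 0.607 and 0.478 CPM in the QH-II-066 libraries. Combined replicate 2 alone carried both, and without it the log2 fold changes were 0.83 and -0.46, against 3.43 ± 1.13 and 3.06 ± 1.22 with it. Ltf, lactoferrin of neutrophil granules, had 9.91 CPM in QH-II-066 replicate 3 and at most 0.568 CPM in the other 7 libraries, with -3.54 ± 1.74. Trem1, an amplifier of myeloid inflammation, differed by 1.66 ± 0.73, or by 1.07 without combined replicate 4 and 0.53 without the skin-bearing libraries. It had 41 counts in the combined group and 21 in the QH-II-066 group.

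Of 30 chemokine and receptor genes 18 were above 0, with a median of 0.06. Cxcl2, a neutrophil attractant, was 8.82 CPM in combined replicate 2 and at most 1.19 CPM in the other 7 libraries, and its log2 fold change of 2.45 was 0.51 without that replicate. Cxcl9, which attracts T cells through CXCR3, averaged 109 ± 15.3 CPM in combined libraries and 138 ± 46.4 CPM in QH-II-066 libraries. Cxcl10, of the same class, averaged 195 ± 74.0 CPM in combined libraries and 191 ± 24.8 CPM in QH-II-066 libraries, with a log2 fold change of 0.03 ± 0.32.

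Fibroblast and matrix genes were above 0 in 27 of 30 cases, against 46.7% of all genes, with a median log2 fold change of 0.32, and none was called. Leaving out each library in turn gave medians of 0.11 to 0.48, with 20 to 29 above 0. The list summed to 5243, 2522, 3430 and 4505 CPM in the combined libraries, against 2332, 3977, 2710 and 3686 CPM in the QH-II-066 libraries, so the groups overlapped and combined replicate 1 was highest. In combined replicate 1 against the 4 QH-II-066 libraries, 30 of 30 were above 0, with a median of 0.74. Col1a1, a chain of type I collagen, had 472, 162, 288 and 471 CPM in the combined libraries, against 127, 306, 156 and 283 CPM in the QH-II-066 libraries. Combined replicates 1 and 4 were above every QH-II-066 library and replicates 2 and 3 within their range, and the log2 fold change was 0.67 ± 0.36 (SE, 95% interval -0.10 to 1.45).

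With limma-voom sample weights, which lower the weight of libraries that stand apart, the differences of Col1a1 (-0.0031), Col3a1 (-0.51), Col5a1 (-0.10) and Pdgfra (-0.31) were below 0.

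In edgeR, Col3a1, of type III collagen, differed by 0.29 ± 0.40, Col5a1, of type V, by 0.52 ± 0.32, and Col6a3, of type VI, by 0.47 ± 0.29. Pdgfra, the growth factor receptor of fibroblasts, differed by 0.65 ± 0.43, and Mmp14, a membrane metalloprotease, by 0.31 ± 0.20. Of 21 matrix protease and cross-linking genes 12 were above 0, with a median of 0.13. Mmp13, a collagenase, had 21.8, 18.7, 12.7 and 7.15 CPM in the combined libraries, against 3.03, 13.6, 2.91 and 6.58 CPM in the QH-II-066 libraries, with 1.21 ± 0.45. QH-II-066 replicate 2 alone reached the combined range, and Mmp13 missed the threshold with it and without it, at 1.85 without it. Mmp3, stromelysin 1, differed by 0.93 ± 0.44, Mmp9, a gelatinase, by 0.99 ± 0.58, and Ctsk, cathepsin K, by 0.52 ± 0.26.

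Of 16 TGF-beta response genes 10 were above 0, with a median of 0.05. Inhba, an activin chain, differed by 1.65 ± 0.65, or by 0.88 without the skin-bearing libraries. That value rests on few reads, 45 counts in the combined group and 19 in the QH-II-066 group, and the groups overlapped. Smad7, the inhibitory Smad, differed by 0.33 ± 0.18. Of 22 endothelial genes 12 were above 0, with a median of 0.02 and a mean of -0.02. Of 13 smooth muscle and pericyte genes 9 were above 0, with a median of 0.06. Of 18 tested adipocyte genes 0 were above 0, with a median of -1.67 that was -0.44, with 1 above 0, without QH-II-066 replicate 3. With all libraries 7 of the 18 were lower at an unadjusted p under 0.05, against 0.882% of all genes. Adipoq, adiponectin, had 0.568, 0.588, 1.88 and 8.34 CPM in the combined libraries, against 0.857, 7.71, 112 and 25.8 CPM in the QH-II-066 libraries. Fabp4, the lipid carrier of fat cells, differed by -1.54 ± 0.56, or by -0.89 without QH-II-066 replicate 3, and Scd1, a fatty acid desaturase, by -1.50 ± 0.55, or by -0.34 without that replicate. Of 17 senescence-associated factors 7 were above 0, with a median of -0.04 and a mean of 0.08, and Cdkn2b, an inhibitor of CDK4 and CDK6, differed by 0.60 ± 0.45.

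The same dose without the drug gave calls, in libraries that the comparison above does not share. Both comparisons came from 1 model of all 16 libraries, so they share its filter and its estimate of spread. Between the 5 Gy and the untreated libraries edgeR called 202 genes higher (1.25%) and 1 lower (0.00621%) at an adjusted p under 0.05, and 22 genes in all without the skin-bearing libraries, which include 5 Gy replicates 2 and 4. Of the 202 genes, 0 were called with the drug, 159 were above 0 with it (78.7%, against 46.7% of all genes), and 12 were higher at an unadjusted p under 0.05. Their median log2 fold change was 0.33 with the drug and 2.26 without it. The 202 genes were chosen by their values without the drug, so the larger median there is not independent of that choice and nothing is read from the gap. The difference of these 2 radiation differences was tested for every gene. With edgeR 0 of 16101 genes were called (0%), with a smallest adjusted p of 0.445, and 251 were higher (1.56%) and 870 lower (5.4%) at an unadjusted p under 0.05. DESeq2 called 59 genes for this difference, 3 higher and 56 lower.

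Fibroblast and macrophage genes are given for both comparisons side by side. Col1a1 differed by 0.67 ± 0.36 with the drug and by 2.33 ± 0.38 without it (edgeR adjusted p = 0.0227 without the drug), and the test of the gap, -1.66, had an adjusted p of 0.498. Col3a1 differed by 0.29 with the drug and by 2.52 without it, Pdgfra by 0.65 with the drug and 2.53 without it, Mrc1 by 0.21 with the drug and 2.05 without it, and Cd163 by 0.81 with the drug and 3.61 without it. All 4 were called without the drug, and the edgeR adjusted p of their gaps lay between 0.471 and 0.500. Over the fibroblast list the median was 0.32 with the drug and 1.83 without it. With the drug 0 of 30 were called, and without it 19 of 30 were called higher, against 1.25% of all genes. The lists and genes were chosen with earlier results of these data known, and all genes named here were called without the drug. As above, nothing is read from the size of the gaps.

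**Figure D4:**
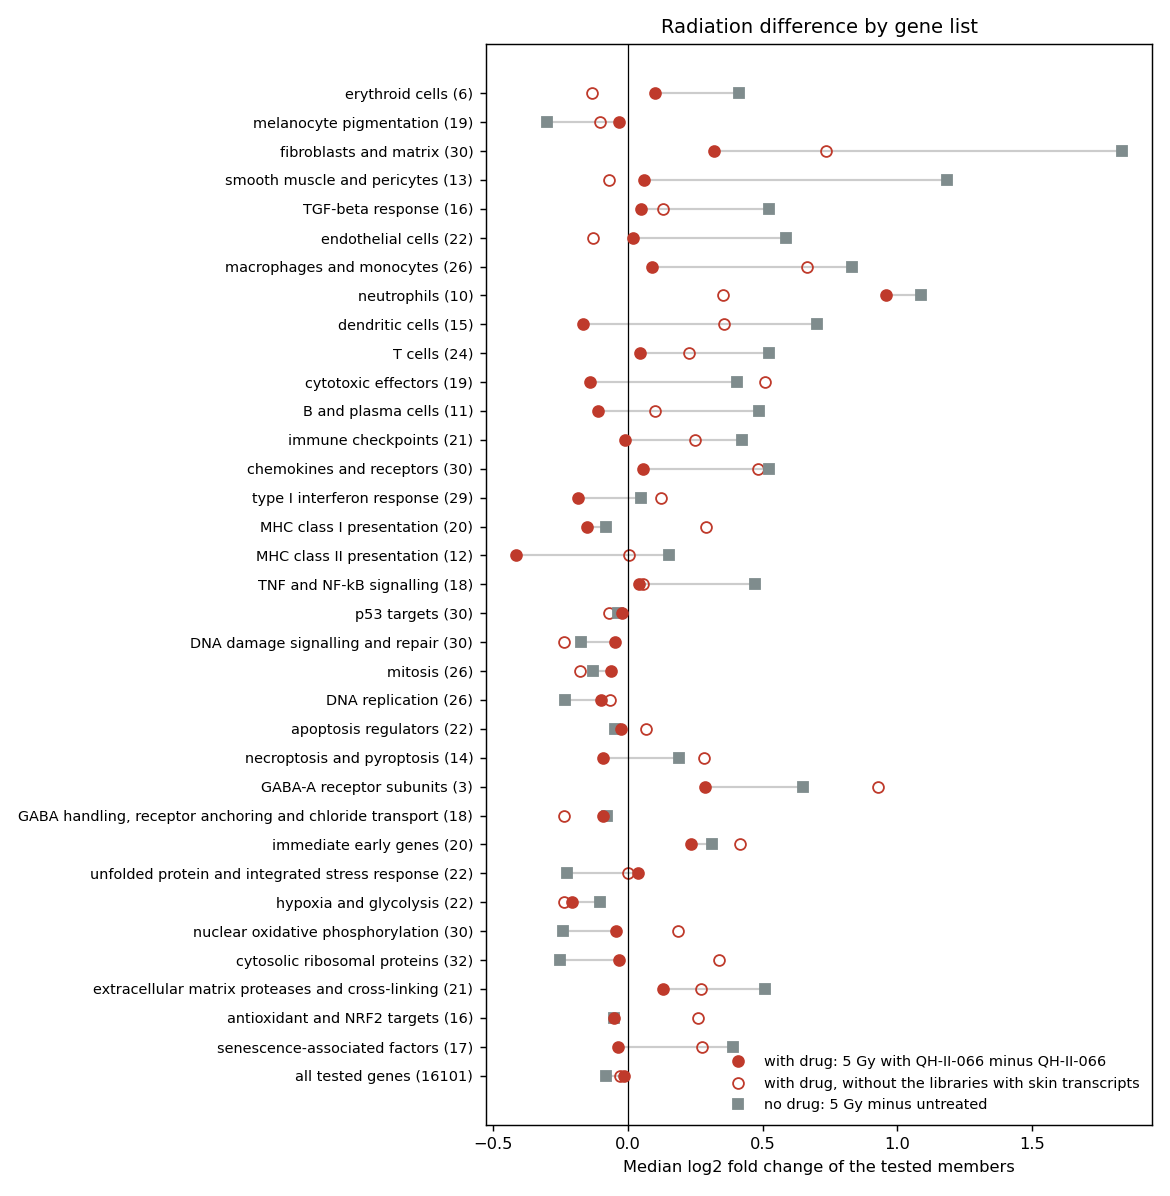
Median log2 fold change of the tested members of 34 gene lists (number tested in brackets) and of all tested genes, for radiation with the drug (red), the same without the skin-bearing libraries (open red, combined replicate 1 against 4 QH-II-066 libraries) and radiation without the drug (grey). Fibroblast and matrix genes lie at 0.32 with the drug and 1.83 without it, and p53, repair, mitosis and replication lists lie between -0.23 and -0.02 in both.

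p53 and cell cycle lists had medians near 0 in both comparisons. Without the drug 12 of 30 p53 targets, 1 of 26 mitosis and 0 of 26 replication genes were above 0, against 6146 of 16101 tested genes. With it the counts were 13, 9 and 8, against 7517. The p53 list had a median of -0.02 with the drug and -0.04 without it, mitosis genes -0.06 with the drug and -0.13 without it, and replication genes -0.10 with the drug and -0.23 without it. Cdkn1a differed by -0.09 ± 0.11 with the drug and 0.01 ± 0.11 without it. Egr1 differed by 0.99 ± 0.31 with the drug and 0.63 ± 0.31 without it, and immediate early genes had a median of 0.23 with the drug and 0.31 without it. For Klf11 and Gbe1 the edgeR adjusted p of the gap between the 2 comparisons was 0.642 and 0.777.

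**Figure D5:**
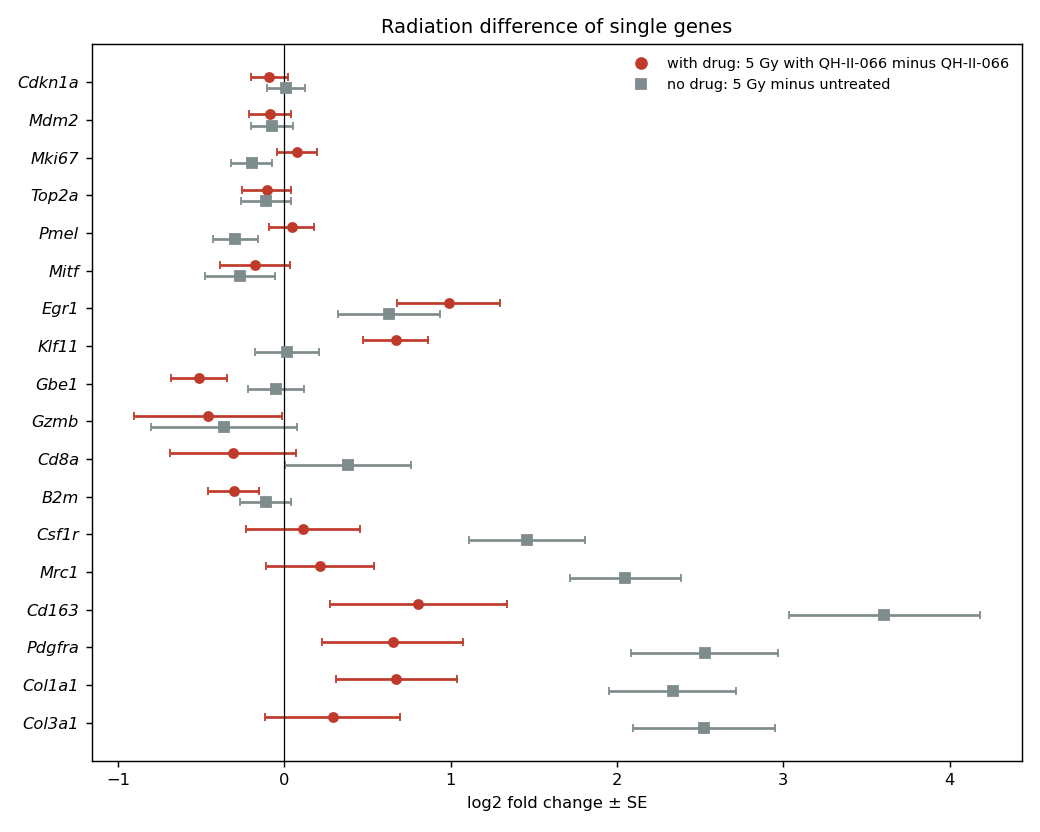
Log2 fold change ± SE of 18 genes for radiation with the drug (red circles, combined minus QH-II-066) and without it (grey squares, 5 Gy minus untreated), 4 libraries per group. Collagen, Pdgfra, Mrc1 and Cd163 values lie between 0.21 and 0.81 with the drug and between 2.05 and 3.61 without it, while Cdkn1a, Mdm2 and Top2a lie within 0.11 of 0 in both.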

How the data were processed

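RNA was sequenced as transcriptome-capture libraries on an Illumina HiSeq instrument, per the labels' protocols. The deposited file holds raw read counts per gene made with featureCounts 1.6.0, per the file header, after alignment with STAR 2.4.1a to mm10, per the submitters' processing notes, which also name edgeR. Counting in that table used no strand, so antisense and overlapping genes, and near-identical genes such as the H2 family, are uncertain. Without molecular identifiers, limits from counts cover counting error only.

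All 16 libraries entered 1 model of the 4 group means, in R 4.3.3 with edgeR 4.0.16 (filterByExpr, TMM, robust quasi-likelihood, two-sided, Benjamini-Hochberg over 16101 genes, threshold 0.05). limma 3.58.1 (voom) and DESeq2 1.42.0 served as alternatives, beside other filters, scalings, covariates and omitted libraries. CPM used TMM library sizes. The model was also run on simulated data, with the outcome not reported here. The comparison, the 38 gene lists and the named genes were chosen with earlier results of these data known. Named genes are the 10 leading in each direction with a mean of at least 1 log2 CPM, ranked by p where none passed, up to 4 members of each list with the smallest p, and a fixed set of genes. Krt85 and Ahsp were not matched in the table. Promoters came from RefSeq, GRCm38.p6. No 2 libraries agreed within sampling noise. Some genes that the rule names are not reported here.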

Additional observations from a re-analysis of the deposited data

Results flagged for a closer look

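Over 107 named genes, each group's 4 libraries were checked for a library far from the other 3 by Dixon's ratio at its 95% critical value, 214 checks in all, of which chance would flag about 1 in 20, and 19 were flagged. Combined replicate 2 stood apart for Amy1 at 0.0392 CPM against 0.352 to 0.447 in the other 3. Combined replicate 3 stood apart for Slc6a13 at 0.0298 CPM against 0 in the other 3 and for Mmp9 at 3.49 CPM against 5.51 to 5.96 in the other 3. Combined replicate 4 stood apart for Klf11 at 7.74 CPM against 10.2 to 10.6 in the other 3 and for Tmem173 at 52.0 CPM against 62.5 to 63.6 in the other 3. The same library stood apart for Nr4a1 at 61.6 CPM against 76.7 to 78.0 in the other 3 and for Pgk1 at 1505 CPM against 2105 to 2252 in the other 3. It also did so for Vegfa at 85.4 CPM against 107 to 109 in the other 3. QH-II-066 replicate 1 stood apart for Ly6g6c at 0.0659 CPM against 0 in the other 3 and for Col6a3 at 28.0 CPM against 50.6 to 55.9 in the other 3. The same library stood apart for Csf1r at 22.7 CPM against 51.5 to 55.7 in the other 3. QH-II-066 replicate 2 stood apart for S100a8 at 2.81 CPM against 0.461 to 0.607 in the other 3 and for Gapdh at 7396 CPM against 6764 to 6865 in the other 3. QH-II-066 replicate 3 stood apart for Psapl1 at 0.0809 CPM against 0 in the other 3 and for Cdkn1a at 209 CPM against 187 to 189 in the other 3. The same library stood apart for Ccng1 at 172 CPM against 129.9 to 134 in the other 3 and for Top2a at 566 CPM against 473 to 486 in the other 3. It also did so for Krt5 at 1.98 CPM against 0 in the other 3 and for Slc12a2 at 74.8 CPM against 17.2 to 18.9 in the other 3. Combined replicate 4 is the shallowest library, and QH-II-066 replicate 3 has the highest adipocyte sum. The part of either in these values was not tested.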

How the results depend on the processing

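edgeR called 0 genes in either direction under RLE scaling, no filter or a stricter one, the compared groups alone, each covariate, an adjusted p under 0.1, and leaving out each of the 8 libraries (range 0 to 0). DESeq2 called 47 higher and 1 lower, and 59 for the difference between the radiation comparisons. Radiation without drug had 22 calls without the skin-bearing libraries. With the replicate number as a block edgeR called 0 genes, with 392 higher and 120 lower at an unadjusted p under 0.05. Same-numbered libraries correlated at 0.32, -0.040, 0.21 and 0.22, and differently numbered ones at -0.38 to 0.25. The main model did not pair libraries by number, and the block is the alternative that does. Leaving out 1 library in turn moved 72 of 107 named differences by over 1.5 times or through 0 at least once, 38 of them without combined replicate 4 and 34 without QH-II-066 replicate 3, and no other library moved more than 24. Of 107 named genes, 64 kept their sign in each alternative that gave a value. The cause was not tested for those that did not, which are listed here as log2 fold changes. With limma-voom these were Col5a1 -0.10, Eomes -0.17, Xrcc2 0.093, Ccnb1 0.029, Gabra3 -1.19, Mdm2 0.049, Ccng1 0.14, Top2a 0.038, Col1a1 -0.0031, Col3a1 -0.51, Pdgfra -0.31, Mrc1 -0.59, Cd163 -0.094, Csf1r -0.36, Ifng -0.25, Foxp3 -0.86, Cxcl10 -0.21, Gabarapl1 0.013 and Slc12a2 0.059. With a skin score as covariate these were Nccrp1 -0.11, Krt17 -0.62, Perp -0.35, Rab38 0.0019, Bcl11b -0.069, Egr3 -0.64, Cdkn1a 0.018, Bax 0.27, Mlana 0.30, Cd163 -0.11, Csf1r -0.087, Foxp3 -0.069, Isg15 0.14, Krt5 -0.18, Krt14 -0.61, Acta1 -4.07 and Vegfa 0.16. With skin score and gene length slope these were Perp -0.41, Bcl11b -0.18, Egr3 -0.29, Cdkn1a 0.0078, Mdm2 0.014, Bax 0.049, Top2a 0.015, Mitf 0.065, Mlana 0.11, Mrc1 -0.0080, Cd163 -0.23, Csf1r -0.10, Foxp3 -0.055, Cxcl10 -0.081, Acta1 -4.33 and Vegfa 0.21. Without the skin-bearing libraries these were Ifi27l2a 0.19, Mlkl 0.065, Gabrb1 0.034, Egr3 -1.39, Bax 0.39, Pmel -0.10, Mlana 0.39, Cd3e 0.23, Cd8a 0.20, Foxp3 -0.26, Isg15 0.63, Cd74 0.00036 and Acta1 -8.81. With a muscle score these were Bax 0.060 and Mlana 0.051. With the length slope this was Cxcl10 -0.066. With no filter on low counts this was Cxcl10 -0.0015. Leaving out 1 library at a time gave S100a8 -0.46 to 4.13, Gabra3 -0.13 to 0.88, Gabrd -0.039 to 0.51, Ccng1 -0.28 to 0.014, Bax -0.21 to 0.15, Pmel -0.014 to 0.11, Mlana -0.24 to 0.22, Col3a1 -0.039 to 0.54, Mrc1 -0.14 to 0.41, Csf1r -0.14 to 0.27, Cd3e -0.38 to 0.15, Foxp3 -0.37 to 1.06, Cxcl10 -0.28 to 0.14, Isg15 -0.46 to 0.093, Acta1 -0.14 to 6.31 and Slc12a2 -0.90 to 0.14. Without the skin-bearing libraries, list medians that changed sign or moved by at least the standard deviation over the list's members were skin epithelium 0.72, skeletal muscle -5.36, erythroid cells -0.13, fibroblasts and matrix 0.74, smooth muscle and pericytes -0.072, endothelial cells -0.13, macrophages and monocytes 0.66, dendritic cells 0.36, cytotoxic effectors 0.51, B and plasma cells 0.10, immune checkpoints 0.25, type I interferon response 0.12, MHC class I presentation 0.29, MHC class II presentation 0.0052, DNA repair -0.24, mitosis -0.18, apoptosis regulators 0.066, necroptosis and pyroptosis 0.28, GABA-A subunits 0.93, unfolded protein response -0.00035, nuclear oxidative phosphorylation 0.19, cytosolic ribosomal proteins 0.34, antioxidant and NRF2 targets 0.26 and senescence-associated factors 0.27. The other lists had hair follicle 0.68, adipocytes -2.22, melanocyte pigmentation -0.10, TGF-beta response 0.13, neutrophils 0.35, T cells 0.23, chemokines and receptors 0.48, TNF and NF-kB signalling 0.057, p53 targets -0.069, DNA replication -0.065, GABA handling, receptor anchoring and chloride transport -0.24, immediate early genes 0.41, hypoxia and glycolysis -0.24 and extracellular matrix proteases and cross-linking 0.27. Means in place of medians were endothelial cells -0.018, B and plasma cells 0.027, p53 targets 0.049, cytosolic ribosomal proteins 0.0077 and senescence-associated factors 0.084. Without the skin-bearing libraries 102 of the 107 genes gave a value, in the compared groups alone 97 and under the stricter filter 99. At 1 count in the shallowest library a low gene's level is uncertain, so differences below a few CPM rest on few reads.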
